A study of Homo sapiens with 6 samples.

Results

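The genes described here encode the working parts of the lysosome: 5 proteins of its membrane, 7 peptidases, 7 glycosidases, 5 lipid hydrolases or their activators, 11 subunits of its proton pump, and 3 genes tied to its control (TFEB, TFE3 and SQSTM1). They were chosen by symbol, for what the encoded proteins do, with earlier results of these data known. They make up 38 of the 19937 genes in the count table. Each symbol matched a single gene, and all 38 passed the filter on low counts, as did 12450 genes in all. The libraries came from U2OS, an established human osteosarcoma cell line, and fell into 2 groups of 3. Cells labelled shSQLE carried a short hairpin RNA against SQLE, which encodes squalene epoxidase, an oxygen-dependent enzyme of cholesterol synthesis, and cells labelled shControl carried a scrambled hairpin that targets no gene. Both groups were infected with lentivirus made from the pGIPZ plasmid and kept in puromycin at 2 µg/mL for 2 weeks, so that selection and vector were shared. The study screened several hairpins and went on with a single one, which the sources used here do not name. The comparison therefore rests on 1 line and 1 hairpin, and it asked which transcripts differed after SQLE was silenced. No label says that replicates came from separate cultures, so p-values measure only the spread among these libraries, which may be technical. In bulk RNA, fewer cells of a kind and less RNA per cell cannot be told apart.

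Lysosomes break down proteins, sugars and lipids delivered by endocytosis and autophagy, and their soluble enzymes work in an acidic interior. The vacuolar ATPase (V-ATPase) keeps that interior acidic, with a V1 part outside the membrane that splits ATP and a V0 part within it that carries protons. TFEB and TFE3 are related transcription factors that bind a palindromic DNA element, known as the CLEAR element, before many lysosomal genes. They are held in the cytoplasm by phosphorylation, so their activity need not follow their mRNA. Cholesterol taken up in lipoproteins is freed in the same compartment and leaves it through NPC1, which is one reason to read these genes in cells with a block in cholesterol synthesis.

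The element is shown first, because lysosomal genes are known for it and TFEB and TFE3 are among the 38. RefSeq promoters on GRCh38.p14, from 250 bases before to 50 bases after the start, were at hand for 27 of the 38 genes. The core CACGTG lay in 8 of these 27 (29.6%), against 12.8% of the 10124 tested genes that have a promoter and 7.26% of all 35116 entries. The longer palindrome TCACGTGA, which contains that core, lay in 5 of 27 (18.5%), against 2.33% of tested genes and 0.980% of entries. A gene was counted where any of its entries held the motif, so percentages of genes and of entries are unlike measures. Both motifs read the same on either strand. The capitals mark the longer palindrome in 30 bases of each of the 5 promoters, read 5′ to 3′ along the gene, and where a gene had 2 copies the one printed is the nearest whose 30 bases all lie before the start.
LAMP1: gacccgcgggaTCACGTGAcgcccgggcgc
ATP6V0D1: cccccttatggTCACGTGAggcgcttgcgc
GAA: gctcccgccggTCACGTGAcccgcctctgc
MCOLN1: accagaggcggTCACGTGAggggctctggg
CTSA: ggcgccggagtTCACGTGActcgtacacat
The stretch of LAMP1 is chr13:113297199-113297228 on the plus strand, with the palindrome beginning 29 bases before the start. That of ATP6V0D1 is chr16:67481199-67481228 on the minus strand, at 60 bases, and that of GAA is chr17:80101538-80101567 on the plus strand, at 32 bases. MCOLN1 has it at chr19:7522571-7522600, plus strand, 42 bases before the start, and CTSA at chr20:45891298-45891327, plus strand, 26 bases before it. The starts meant here are those of the RefSeq entries. In GENCODE v44, which gave the gene coordinates below, GAA begins at 80101533 and CTSA at 45890144. The printed stretches of GAA and CTSA therefore lie inside the genes as annotated there. A match describes the letters and is neither a binding site nor a cause. The other members with the shorter core were ATP6V0B, CD63 and CTSD.

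Totals ran from 12212378 to 14393292 counts per library, and normalised counts below are counts scaled to the mean effective library size. SQLE fell by 2.98 on the log2 scale in shSQLE, the labelled direction, with 229, 204 and 219 normalised counts against 1349, 1867 and 1924 in shControl. The osteoblast and mesenchymal markers RUNX2, SPP1, COL1A1, SPARC and VIM were present in every library, with 35613 to 45339 normalised counts of VIM, whereas SP7 and IBSP had none and ALPL, BGLAP and COL1A2 had at most 5.43. Of the osteoclast and macrophage markers, DCSTAMP, OCSTAMP, PTPRC and TYROBP were at 0 in all libraries, and ACP5 ranged from 11.8 to 20.8. ACP5 and CSF1R were the 2 of these 9 markers with enough counts to test, at -0.31 and -0.70 on the log2 scale, and neither passed. COL1A1 fell by 0.65 on the log2 scale in shSQLE (edgeR adjusted p = 0.0452), a call that, among the fits leaving out 1 library, was kept only without shControl replicate 1. With a replicate block it was lost (edgeR adjusted p = 0.106). No other marker passed the test with all libraries. Among epithelial and endothelial markers, KRT18 had 7068 to 12604 normalised counts and a log2 fold change of 0.16. EPCAM had 49.7 to 74.4 and was higher in all shSQLE libraries (0.40, edgeR adjusted p = 0.362). PECAM1 was rare, with 10.4, 13.6 and 14.7 normalised counts in shControl and 3.92, 5.91 and 2.06 in shSQLE (-1.67, unadjusted p = 0.00460, edgeR adjusted p = 0.0933). CDH5 was at or near 0.

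One library stood apart. shControl replicate 1 was the highest of the 6 libraries for 22 of the 38 genes (57.9%) and the lowest for 7 (18.4%), against 31.3% and 33.4% of the tested genes. Its log2 ratio to the other shControl libraries rose with the GC content of the transcript (Pearson's r = 0.84 and Spearman's rho = 0.81 across the 38 genes, a description across genes of the same libraries). CTSD, with 63.6% GC, stood 1.01 above the others on the log2 scale, and ATP6V1A, with 40.5% GC, stood 0.75 below. Its part in the results was not tested. The counts over the genes, and the results that turn on this library, are therefore also given without it and, as a choice made after seeing the data, with smooth offsets that take GC content and transcript length out of all libraries.

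**Figure D1:**
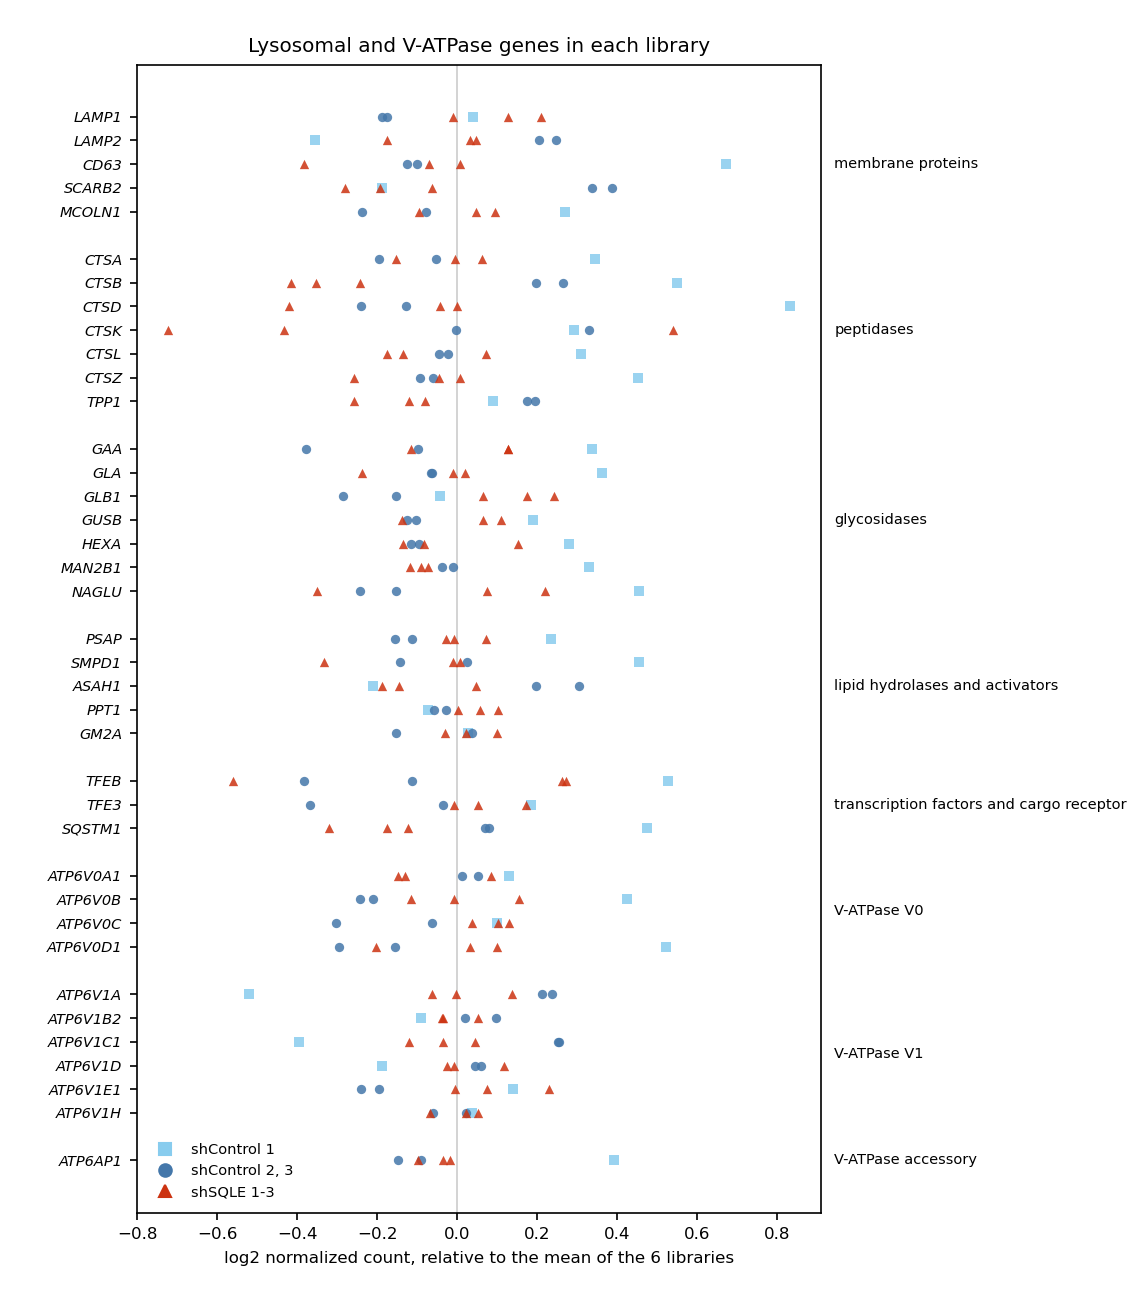
Each row is a gene, grouped by role, and each point is a library: the log2 normalised count relative to the mean of the 6 libraries. The pale blue squares of shControl replicate 1 lie at the right for CTSD, CD63 and ATP6V0D1 and at the left for ATP6V1A and ATP6V1C1, while the red triangles of shSQLE lie left of all shControl points for CTSB, TPP1, SQSTM1 and MAN2B1.

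Of the 38 lysosomal genes 1 passed the test between shSQLE and shControl. This was CTSB, the gene of cathepsin B, which fell. The median log2 fold change over the 38 genes was -0.06, beside -0.01 over all genes tested, with 24 genes below 0 and 14 above. By the quasi-likelihood test of edgeR, adjusted over all genes tested by the Benjamini-Hochberg method at 0.05, 1 member was lower (2.63%), beside 2.84% of all genes, and 0 were higher, beside 0.369%. At an unadjusted p under 0.05 there were 3 lower and 1 higher, beside 9.89% and 4.83% of all genes. DESeq2 called 1 member lower and 0 higher, beside 4.01% and 1.14% of the genes to which it gave an adjusted p. A replicate block gave 1 and 0 as well, beside 2.91% and 0.273%. Groups did not overlap for 4 lower genes (CTSB, TPP1, SQSTM1 and MAN2B1), which is 10.5% of the members beside 12.1% of all genes. For 2 higher genes, GLB1 and PPT1, they did not overlap either, which is 5.26% beside 10.0%. In each direction the members' share lay near or under that of the whole table.

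Without shControl replicate 1 more genes passed the test everywhere, and 7 members were lower (18.4%, beside 18.3% of genes) and 3 higher (7.89%, beside 15.6%). The lower ones were CTSB, SCARB2, SQSTM1, TPP1, ATP6V1C1, ASAH1 and LAMP2, and the higher ones LAMP1, GLB1 and ATP6V1E1. With GC content and length taken out, 6 were lower (15.8%, beside 8.69%) and 2 higher (5.26%, beside 12.3%). These were CTSB, SQSTM1, SCARB2, CD63, TPP1 and CTSZ in the lower direction, and LAMP1 and GLB1 in the higher. CTSB, SCARB2, SQSTM1 and TPP1 were thus called lower, and LAMP1 and GLB1 higher, in both of these fits. The median over the members was 0.03 without that library and 0.01 with GC content and length taken out, when the medians of all genes were -0.01 and 0.06.

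**Figure D2:**
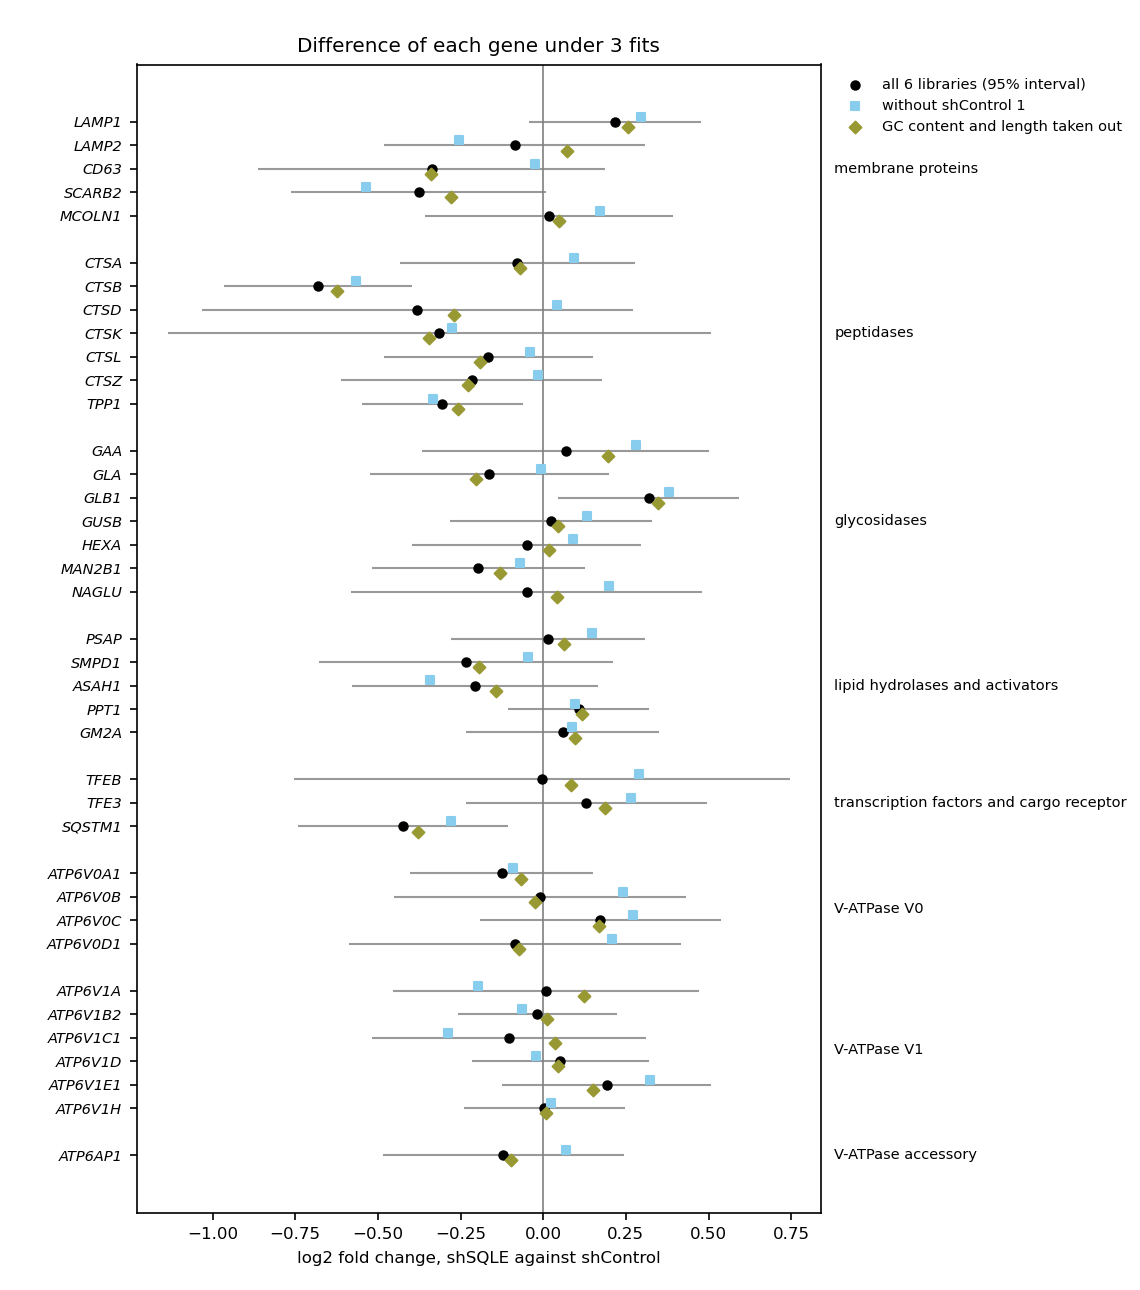
The log2 fold change of each gene, shSQLE against shControl, from all 6 libraries (black, with 95% interval), without shControl replicate 1 (blue squares) and with GC content and length taken out (olive diamonds). The CTSB interval lies wholly below 0, with its upper end farther left than that of any other gene, while those of the V-ATPase subunits all cross 0.

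With all libraries, the 7 peptidases were the role in which every fold change was below 0, whereas 6420 of the 12450 genes tested were below 0. Their median was -0.30, and 1 of the 7 passed the test as lower (14.3%, beside 2.84% of all genes). Without shControl replicate 1, CTSA and CTSD were above 0, at 0.09 and 0.04. The role was singled out after these values were seen. Cathepsin B, a cysteine protease encoded by CTSB (ENSG00000164733, chromosome 8, 11842524 to 11869533, minus strand, hg38), had 8629, 7091 and 6766 normalised counts in shControl and 4616, 4979 and 4425 in shSQLE. All 3 shSQLE libraries lay below all 3 shControl libraries. The means were 7495 ± 996 and 4673 ± 282 (SD, n = 3 each), and the log2 fold change was -0.68 with a standard error of 0.12 and a 95% interval from -0.97 to -0.40 (edgeR quasi-likelihood test, adjusted p = 0.0261). It was -0.57 without shControl replicate 1 (edgeR adjusted p = 0.000261) and -0.63 with GC content and length taken out (edgeR adjusted p = 0.00156). Leaving out each library in turn kept the direction in all 6 fits (-0.74 to -0.57). The call was kept without shControl replicate 1 or 3, and lost without shControl replicate 2 or any one of the shSQLE libraries (edgeR adjusted p from 0.0860 to 0.171). An exact permutation test of 3 against 3 gave p = 0.1, two-sided, the smallest this design allows.

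TPP1, an exopeptidase that trims tripeptides (chromosome 11, 6612768 to 6619448, minus strand), had 1322, 1422 and 1401 normalised counts in shControl and 1174, 1142 and 1039 in shSQLE. Its groups did not overlap, and shControl replicate 1 was not apart here. The log2 fold change of -0.30 had an interval from -0.55 to -0.06, with an unadjusted p of 0.0203 and an edgeR adjusted p of 0.219. It was -0.33 without shControl replicate 1 (edgeR adjusted p = 0.0101) and -0.26 with GC content and length taken out (edgeR adjusted p = 0.0258). CTSD, an aspartic protease (chromosome 11, 1752752 to 1764573, minus strand), had 2880, 1481 and 1370.4 normalised counts in shControl and 1572, 1616 and 1210 in shSQLE. Here a single library set the sign: the fold change was -0.38 with all libraries and 0.04 without shControl replicate 1, and neither passed the test. Cathepsins L and Z (CTSL and CTSZ) had fold changes of -0.17 and -0.22, which became -0.04 and -0.02 without that library and -0.19 and -0.23 with GC content and length taken out, where CTSZ passed the test (edgeR adjusted p = 0.0302). CTSA, a carboxypeptidase that also shields beta-galactosidase and neuraminidase from breakdown, was at -0.08 with all libraries. It was at 0.09 without shControl replicate 1 and at -0.07 with GC content and length taken out. Cathepsin K, the collagen-degrading protease of osteoclasts, was scarce, with 22.6 to 28.4 normalised counts of CTSK in shControl and 13.7 to 32.9 in shSQLE. The median of the 7 peptidases was -0.04 without shControl replicate 1 and -0.26 with GC content and length taken out.

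**Figure D3:**
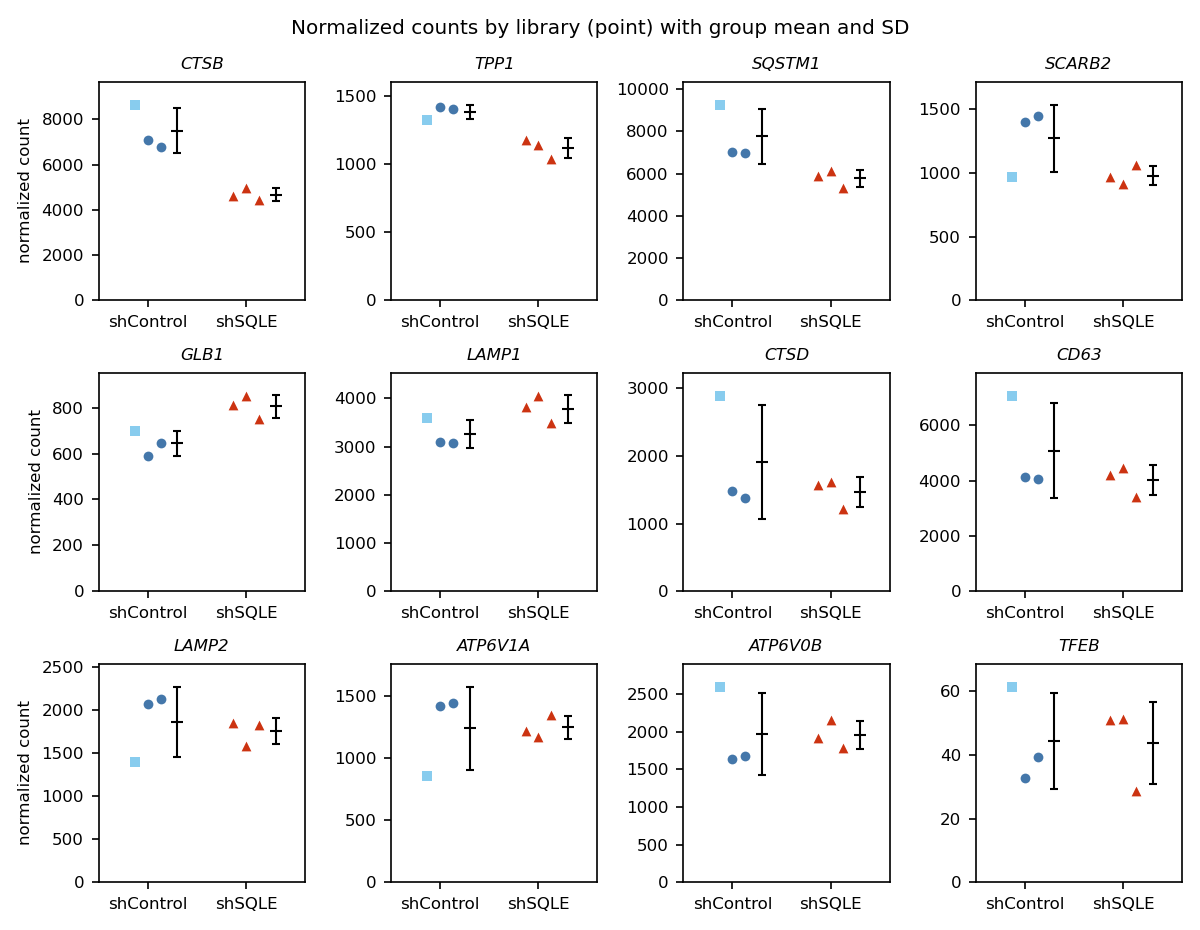
Normalised counts of 12 genes by library, with the mean and SD of each group of 3 beside the points and axes from 0. The pale blue square is shControl replicate 1, which for CTSD (2880) and CD63 (7054) lies well above the other shControl libraries and for ATP6V1A (853) well below them.

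Among the membrane proteins no gene passed the test with all libraries, and LAMP1 and SCARB2 lay on opposite sides of 0. LAMP1, a heavily glycosylated protein that lines the lysosomal membrane (chromosome 13, 113297239 to 113323672, plus strand), had 3602, 3103 and 3074 normalised counts in shControl and 3827, 4052 and 3482 in shSQLE. The lowest shSQLE library lay below the highest shControl library, so the groups overlapped. Its fold change was 0.22 (interval -0.04 to 0.48, edgeR adjusted p = 0.448) and 0.29 without shControl replicate 1 (edgeR adjusted p = 0.0163). LAMP2, its relative with a role in chaperone-mediated autophagy, was at -0.09 with all libraries, -0.25 without that library and 0.07 with GC content and length taken out. SCARB2, the receptor that carries glucocerebrosidase to the lysosome (chromosome 4, 76158737 to 76234536, minus strand), had 970.0, 1395 and 1447 normalised counts in shControl and 967, 911 and 1059 in shSQLE. The libraries of shControl replicates 2 and 3 lay above all of shSQLE and that of replicate 1 lay among them. The fold change was -0.38 (unadjusted p = 0.0537, edgeR adjusted p = 0.352), and without that library -0.54 (edgeR adjusted p = 0.000877). CD63, a tetraspanin of late endosomes and exosomes (chromosome 12, 55725323 to 55729707, minus strand), had 7054, 4125 and 4057 normalised counts in shControl and 4216, 4446 and 3393 in shSQLE. It was at -0.34 with all libraries (edgeR adjusted p = 0.587) and -0.02 without the highest one. With GC content and length taken out it was again at -0.34 and passed the test (edgeR adjusted p = 0.0187). MCOLN1, a calcium channel of the lysosomal membrane, was at 0.02.

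GLB1 was the member with the highest fold change. It encodes lysosomal beta-galactosidase, the enzyme stained for in senescent cells (chromosome 3, 32996609 to 33097202, minus strand), and had 699, 590.5 and 646 normalised counts in shControl and 812, 851 and 752 in shSQLE. The groups did not overlap. The means were 645 ± 54.1 and 805 ± 49.5 (SD, n = 3 each), with a log2 fold change of 0.32 (interval 0.05 to 0.59, unadjusted p = 0.0275, edgeR adjusted p = 0.254). Without shControl replicate 1 it was 0.38 (edgeR adjusted p = 0.00925), and with GC content and length taken out 0.35 (edgeR adjusted p = 0.00824). TMPPE, a gene annotated on the same strand, lies within GLB1, and how shared reads were assigned is not given in the sources used here. The other 6 glycosidases ran from -0.20 to 0.07. MAN2B1, a mannosidase of glycoprotein breakdown, was at -0.20, with 486, 377 and 385 normalised counts in shControl and 356, 364 and 368 in shSQLE. GLA, which removes galactose from globotriaosylceramide, was at -0.16, HEXA, a subunit of the enzyme that clears GM2 ganglioside, at -0.05, and NAGLU, an enzyme of heparan sulfate breakdown, at -0.05. GUSB, beta-glucuronidase, was at 0.02, and GAA, which digests lysosomal glycogen, at 0.07.

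The 5 genes of lipid breakdown had fold changes from -0.23 to 0.11 and a median of 0.01, and none passed the test with all libraries. SMPD1, acid sphingomyelinase, was at -0.23, and ASAH1, acid ceramidase, at -0.21. ASAH1 was lower without shControl replicate 1 (-0.34, edgeR adjusted p = 0.0222). PSAP, the precursor of the saposins that present sphingolipids to their hydrolases, had the most counts of the 38 genes, 11409 ± 1753 in shControl and 11517 ± 431 in shSQLE, and a fold change of 0.01. GM2A, the activator of GM2 breakdown, was at 0.06. PPT1, which removes palmitate from proteins, was at 0.11, and its groups did not overlap, with 3297, 3333 and 3404 normalised counts in shControl and 3475, 3606 and 3723 in shSQLE.

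No difference in the mRNA of the transcription factors was detectable at this depth and number of libraries. TFEB (chromosome 6, 41683978 to 41736259, minus strand) was scarce, with 61.2, 32.6 and 39.2 normalised counts in shControl and 50.9, 51.3 and 28.8 in shSQLE. The groups overlapped throughout, and the interval of its fold change, -0.75 to 0.75 around 0.00, was wide on both sides. TFE3 (chromosome X, 49028726 to 49043410, minus strand) had 672, 577 and 458 normalised counts in shControl and 613, 666 and 588 in shSQLE, with a fold change of 0.13 (interval -0.23 to 0.50, edgeR adjusted p = 0.791). Per kilobase of transcript, TFE3 stood at 173 ± 32.6 and TFEB at 19.0 ± 6.42 normalised counts in shControl. The 5 genes with the longer palindrome in the promoter had fold changes of 0.22 (LAMP1), -0.08 (CTSA), 0.07 (GAA), 0.02 (MCOLN1) and -0.09 (ATP6V0D1), and none passed the test with all libraries. In the same order they were at 0.29, 0.09, 0.28, 0.17 and 0.21 without shControl replicate 1. With GC content and length taken out they were at 0.26, -0.07, 0.19, 0.05 and -0.07. LAMP1 alone passed the test in those fits (edgeR adjusted p = 0.0163 and 0.0107).

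SQSTM1, which encodes the autophagy cargo receptor p62 (chromosome 5, 179806398 to 179838078, plus strand), had 9251, 7038 and 6987 normalised counts in shControl and 5897, 6115 and 5330.2 in shSQLE. The groups did not overlap, and shControl replicate 1 was the highest. The means were 7759 ± 1292 and 5781 ± 405 (SD, n = 3 each), with a fold change of -0.42 (interval -0.74 to -0.11, unadjusted p = 0.0150, edgeR adjusted p = 0.187). It was -0.28 without shControl replicate 1 (edgeR adjusted p = 0.0184) and -0.38 with GC content and length taken out (edgeR adjusted p = 0.00158). MGAT4B and MRNIP overlap it on the opposite strand, and the use of strand in counting is not given in the sources used here.

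None of the 11 subunits of the V-ATPase passed the test with all libraries. Fold changes ran from -0.13 to 0.19 with a median of -0.01, and no interval reached beyond -0.59 or 0.54. By edgeR 0 of the 11 passed the adjusted threshold, beside 2.84% lower and 0.369% higher among all genes. At an unadjusted p under 0.05 there were also 0, beside 9.89% and 4.83%. DESeq2 called 0 of the 11, beside 4.01% and 1.14%. In so small a set, 0 lay near these shares. Without shControl replicate 1, 1 was lower and 1 higher (9.09% each, beside 18.3% and 15.6%). With GC content and length taken out there were 0, beside 8.69% and 12.3%. ATP6V1E1, a stalk subunit of V1 (chromosome 22, 17592136 to 17628749, minus strand), was the highest, with 1658, 1315 and 1273 normalised counts in shControl and 1585, 1766 and 1500 in shSQLE. Its groups overlapped through shControl replicate 1. The fold change was 0.19 with all libraries (edgeR adjusted p = 0.615) and 0.32 without that library (edgeR adjusted p = 0.0157). ATP6V0C, which encodes the proteolipid of the rotating ring (chromosome 16, 2513952 to 2520218, plus strand), had 134, 101 and 120 normalised counts in shControl and 134, 128 and 137 in shSQLE, and a fold change of 0.17 (edgeR adjusted p = 0.708). Its level is uncertain, since 2 annotated genes overlap it on the same strand. The subunits of V1 that bind and split ATP, ATP6V1A and ATP6V1B2, were at 0.01 and -0.02, and the regulatory subunit ATP6V1H was at 0.00. The stalk subunits ATP6V1C1 and ATP6V1D were at -0.10 and 0.05. Without shControl replicate 1, the lowest library for ATP6V1C1, that gene was at -0.29 and passed the test (edgeR adjusted p = 0.0162), and with GC content and length taken out it was at 0.03. In V0, ATP6V0A1 was at -0.13, ATP6V0D1 at -0.09 and the second proteolipid ATP6V0B at -0.01, and the accessory subunit ATP6AP1 was at -0.12.

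The 2 parts of the pump differed in base composition. Transcripts of the V0 subunits had 51.4% to 62.9% GC and those of V1 had 39.7% to 46.0%. shControl replicate 1 was the highest library for 3 of 4 V0 genes and the lowest for 4 of 6 V1 genes. The medians of V0 and V1 were -0.05 and 0.01 with all libraries, 0.22 and -0.04 without shControl replicate 1, and -0.05 and 0.04 with GC content and length taken out.

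The share of all counts taken by the 38 genes was 0.564%, 0.502% and 0.500% in shControl and 0.459%, 0.469% and 0.452% in shSQLE. The groups did not overlap, and the means were 0.522% ± 0.0363 and 0.460% ± 0.00855 (SD, n = 3 each). The V-ATPase took 0.0956% ± 0.00154 and 0.0924% ± 0.00207, and the other 27 genes 0.426% ± 0.0374 and 0.368% ± 0.0102. Such a sum is set by its largest members, among them PSAP, CTSB and SQSTM1. Of these, CTSB and SQSTM1 had log2 fold changes of -0.68 and -0.42, and PSAP one of 0.01. The sum therefore does not show a fall shared by the 38 genes, whose median was -0.06.

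Levels per kilobase of transcript spanned a wide range among the members. CD63 had 4965 ± 1673 normalised counts per kb in shControl (SD, n = 3) and PSAP 4152 ± 638, which did not differ beyond their spread. SQSTM1 followed with 2732 ± 455, CTSB with 2008 ± 267, ATP6V0B with 1990 ± 550.4 and PPT1 with 1464 ± 23.8. At the other end stood SMPD1 with 90.3 ± 19.9, GM2A with 73.7 ± 5.38, TFEB with 19.0 ± 6.42 and CTSK with 16.1 ± 1.95.

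V-ATPase subunits that come in several versions showed which of them these cells used. Among the versions measured, and by level per kb in shControl, ATP6V0D1 made up 95.8% of the d subunit, ATP6V1B2 99.9% of B, ATP6V1E1 96.5% of E, ATP6V1C1 93.7% of C and ATP6V0A1 69.0% of a. The remainder of d came from ATP6V0D2, the version known from osteoclasts and kidney. Of 9 tested subunits outside the members, only ATP6V0D2 passed, as lower (11.1%, beside 2.84% of all genes), with 0 higher (beside 0.369%). ATP6V1C2 was also lower without overlap (log2 fold change -0.73, unadjusted p = 0.0192, edgeR adjusted p = 0.213). Without shControl replicate 1, 2 of the 9 were lower (22.2%, beside 18.3%) and 2 higher (22.2%, beside 15.6%). With GC content and length taken out, 1 was lower (11.1%, beside 8.69%) and 1 higher (11.1%, beside 12.3%). ATP6V0D2 had 46.2, 65.1 and 81.4 normalised counts in shControl and 0.979, 4.93 and 1.03 in shSQLE. It made up 4.22% ± 2.05 of the d subunit in shControl and 0.146% ± 0.132 in shSQLE. Summed raw counts were 195 and 7, and the ratio of shControl to shSQLE was 28.9 (95% interval 13.8 to 72.8, counting error only). Its log2 fold change was -4.72 (edgeR adjusted p = 0.00260), and the call was kept in all 6 fits that left out a library. PSKH2 overlaps it on the opposite strand. It was -4.90 without shControl replicate 1 and -4.68 with GC content and length taken out. Of the 9 osteoclast and macrophage markers, DCSTAMP, OCSTAMP, PTPRC and TYROBP were at 0 in every library, and CALCR, CD14 and AIF1 were too rare to test. The 2 tested, ACP5 (11.8 to 20.8 normalised counts) and CSF1R, were both below 0, at -0.31 and -0.70 on the log2 scale. Neither passed the test.

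**Figure D4:**
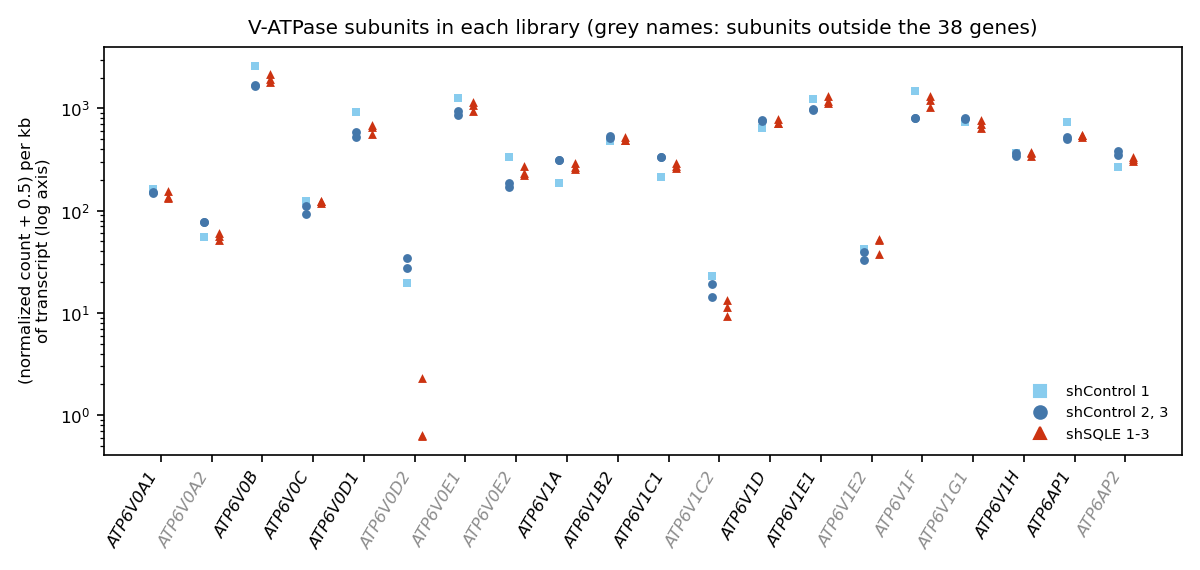
Normalised counts, plus 0.5, per kb of transcript on a log axis for each V-ATPase subunit with a tested gene, one point per library. Black names are among the 38 genes and grey names are not. The 3 shSQLE points of ATP6V0D2 fall far below its shControl points, while the points of the other subunits lie closer together.

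In the rest of the lysosomal system, 126 further genes of 6 lists were looked up and 116 were tested. Of these 7 were lower (6.03%) and 1 higher (0.862%), read against the same 2.84% and 0.369%, and the median fold change was -0.07. There were 24 lower (20.7%, beside 18.3% of all genes) and 18 higher (15.5%, beside 15.6%) without shControl replicate 1. With GC content and length taken out there were 13 lower (11.2%, beside 8.69%) and 10 higher (8.62%, beside 12.3%). The share of lower genes thus lay closer to that of the whole table in these fits. Among 30 other hydrolases tested, CTSS and CTSO, both cysteine cathepsins, fell and CTSV, a relative of cathepsin L, rose. That is 6.67% lower and 3.33% higher, beside 2.84% and 0.369% of all genes. Without shControl replicate 1, 5 were lower (16.7%, beside 18.3%) and 6 higher (20%, beside 15.6%). With GC content and length taken out, 2 were lower (6.67%, beside 8.69%) and 4 higher (13.3%, beside 12.3%). CTSS had 281, 297 and 280 normalised counts in shControl and 132, 149.8 and 149 in shSQLE, without overlap (log2 fold change -0.99, edgeR adjusted p = 0.00734). CTSO had 75.1, 85.9 and 92.2 against 22.5, 26.6 and 39.1 (-1.52, edgeR adjusted p = 0.0156). CTSV had 69.3, 57.9 and 76.5 against 118, 131 and 116 (0.84, edgeR adjusted p = 0.0412). Of the fits that left out 1 library, the call of CTSV was kept only without shControl replicate 1, that of CTSO only without shControl replicate 1 or shSQLE replicate 3, and that of CTSS only without any one of the shControl libraries. Where lost, edgeR adjusted p ran from 0.0559 to 0.204 over the 3 genes. The replicate block also ended the call of CTSV (edgeR adjusted p = 0.0689). All 3 were called without shControl replicate 1 (CTSS -1.003, CTSO -1.60, CTSV 0.86) and with GC content and length taken out (-0.92, -1.46 and 0.94). CTSF and GALC had no count in any library.

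Among 23 other membrane and transport proteins tested, 1 was lower (4.35%, beside 2.84% of all genes) and 0 higher (beside 0.369%). The lower one was NPC1, the cholesterol exporter of the lysosome. It had 1937, 2258 and 2243 normalised counts in shControl and 1372, 1336 and 1416 in shSQLE, and the groups did not overlap. It fell by 0.64 on the log2 scale (edgeR adjusted p = 0.0200), and of the 6 fits that left out a library the call was kept only without shControl replicate 1 (edgeR adjusted p from 0.0835 to 0.142 in the others). It was -0.71 without that library and -0.58 with GC content and length taken out. Of the 23 genes, 7 were lower without that library (30.4%, beside 18.3% of all genes). With GC content and length taken out, 5 were lower (21.7%, beside 8.69%). In these fits 0 were higher, beside 15.6% and 12.3% of all genes. HGSNAT, an acetyltransferase of heparan sulfate breakdown, came next, at -0.46 (edgeR adjusted p = 0.0924). Among 25 autophagy genes, 3 were lower (12%, beside 2.84% of all genes) and 0 higher (beside 0.369%). Leaving out shControl replicate 1 gave 7 lower (28%, beside 18.3%) and 2 higher (8%, beside 15.6%), and with GC content and length taken out 4 were lower (16%, beside 8.69%) and 1 higher (4%, beside 12.3%). WIPI1, which binds the lipid of forming autophagosomes, had 307, 260.4 and 309 normalised counts in shControl and 129, 118 and 138 in shSQLE (log2 fold change -1.18, edgeR adjusted p = 0.00501). GABARAPL1, a ubiquitin-like protein of the autophagosome membrane, was at -1.24 (edgeR adjusted p = 0.00734), and OPTN, like SQSTM1 a cargo receptor, at -0.99 (edgeR adjusted p = 0.0103). All 3 stayed lower without shControl replicate 1 (WIPI1 -1.15, GABARAPL1 -1.14, OPTN -0.96) and with GC content and length taken out (-1.20, -1.25 and -0.95). Leaving out 1 library ended these calls for GABARAPL1 (shSQLE replicate 2 or 3), OPTN (shSQLE replicate 2 or 3, or shControl replicate 2) and WIPI1 (shSQLE replicate 1), with edgeR adjusted p from 0.0508 to 0.0852.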

How the data were processed

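Poly(A) RNA of U2OS cells was sequenced as 151 bp paired reads in 6 libraries. Per the submitters' processing notes, reads were trimmed with fastp 0.20.0, aligned to hg38 with STAR 2.7.9a and counted with featureCounts 2.0. The authors deposited raw counts per gene, not normalised. Which annotation release was used, and how strand and reads mapping to several places were handled, is not given in the sources used here. GUSB and ATP6V0C have closely similar pseudogenes, so their counts are uncertain. The authors' DESeq2 design was run as an alternative.

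Counts were analysed with R 4.3.3 and edgeR 4.0.16 (TMM, filterByExpr, quasi-likelihood test with the group as the only term, Benjamini-Hochberg at 0.05), and the script was tested on simulated data. The alternatives used DESeq2 1.42.0, other size factors and filters, a replicate block, each library left out, and mgcv 1.9.3 offsets for GC content and length. Levels per kb divide by the length of the canonical transcript in GENCODE v44 on hg38, which also gave coordinates. A member with a gene overlapping on the same strand (CTSD, MCOLN1, GLB1, HEXA, MAN2B1 and ATP6V0C) or on the opposite strand (SCARB2, CTSA, CTSZ, GLA, GM2A, SQSTM1 and ATP6V1D) may hold reads of its neighbour. Promoters came from RefSeq (GRCh38.p14). No entry was matched for ASAH1, ATP6V1A, ATP6V1B2, ATP6V1C1, ATP6V1H, CTSB, CTSK, HEXA, LAMP2, NAGLU and PSAP.

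Members and lists were chosen with earlier results of these data known. Values in every library are given for members at an unadjusted p under 0.05, for the 5 lowest and 5 highest fold changes, and for TFEB, TFE3 and SQSTM1. Other values by library (such as those of MAN2B1 and PPT1, whose groups do not overlap) were chosen after they were seen. From each other list, genes past the adjusted p and up to 2 with the smallest p are named. Of the other V-ATPase subunits, ATP6V0D2 and ATP6V1C2 are named in this way.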

Additional observations from a re-analysis of the deposited data

How the results depend on the processing

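With the offsets for GC content and transcript length, an alternative chosen after seeing the data, 6 members were called lower and 2 higher, and of the other lysosomal lists 13 genes were lower and 10 higher (beside 8.69% and 12.3% of all genes). Of the 116 tested genes of those lists, 0 were higher with a replicate block (beside 0.273% of all genes) and 2 with DESeq2 (beside 1.14%). With library size only 0 were higher, and the share of all genes in that fit is not given here. Over the fits that left out 1 library, 0 to 7 members were lower and 0 to 3 higher, and 2 to 24 genes of the other lists were lower and 0 to 18 higher, with the high ends without shControl replicate 1 (beside 18.3% and 15.6% of all genes). The median of the members ran from -0.12 to 0.03, that of the V-ATPase from -0.01 to 0.03 and that of the other members from -0.18 to 0.04. SQLE stayed between -3.12 and -2.87. Signs turned for small fold changes. With GC content and length out LAMP2 was at 0.071, HEXA 0.017, NAGLU 0.042, TFEB 0.085, ATP6V1B2 0.012 and ATP6V1C1 0.035. With library size only MCOLN1 was at -0.017, GUSB -0.014, PSAP -0.020, ATP6V1A -0.042 and ATP6V1H -0.036. ATP6V1H was at -0.00088 with at least 10 counts in every library. TFEB was at 0.0074 with RLE size factors, 0.0034 with DESeq2 and 0.00041 with no filter, and ATP6V0B at 0.00071 with RLE, 0.0048 with DESeq2 and 0.020 with a replicate block. Leaving out 1 library, ranges crossed 0 for ATP6AP1 (-0.22 to 0.070), ATP6V0B (-0.13 to 0.24), ATP6V0D1 (-0.23 to 0.21), ATP6V1A (-0.20 to 0.15), ATP6V1B2 (-0.065 to 0.039), ATP6V1C1 (-0.29 to 0.012), ATP6V1D (-0.023 to 0.099), ATP6V1H (-0.025 to 0.039), CTSA (-0.18 to 0.094), CTSD (-0.56 to 0.041), GAA (-0.073 to 0.28), GUSB (-0.033 to 0.13), HEXA (-0.14 to 0.091), LAMP2 (-0.25 to 0.031), MCOLN1 (-0.077 to 0.17), NAGLU (-0.18 to 0.20), PSAP (-0.047 to 0.15) and TFEB (-0.19 to 0.29). The cause was not tested. Same-numbered libraries deviated together for 2 of 3 numbers (r = 0.14, -0.43 and 0.54), so the numbers were not taken to pair them. With the replicate block 1 member was lower (CTSB, -0.67, edgeR adjusted p = 0.0288) and 0 higher, and the calls of CTSV and of the marker COL1A1 were lost. CTSK and TFEB, with few counts, allow only wide intervals.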

Other observations

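With all libraries, no sorting or signalling gene around the lysosome passed the test. None of 13 genes of mannose 6-phosphate sorting, which tags hydrolases in the Golgi and carries them to endosomes, passed the quasi-likelihood test of edgeR after Benjamini-Hochberg adjustment. At an unadjusted p under 0.05, 0 were lower and 1 was higher, beside 9.89% and 4.83% of all genes. Without shControl replicate 1, 2 of the 13 were lower (15.4%, beside 18.3% of all genes) and 5 higher (38.5%, beside 15.6%), and with GC content and length taken out 0 and 3 (23.1%, beside 12.3%). The gene at the unadjusted threshold was SORT1, a sorting receptor, with 1258, 1612 and 1502 normalised counts in shControl and 1857, 1742 and 2159 in shSQLE, without overlap (log2 fold change 0.40, edgeR adjusted p = 0.218, and 0.30 and 0.51 in those fits, where it passed the test). AP1B1, an adaptor of clathrin coats, was next at 0.27. Of 16 genes of the mTORC1 platform on the lysosomal surface, none passed the test. At an unadjusted p under 0.05, 1 was lower and 1 higher (6.25% each, beside 9.89% and 4.83% of all genes). Without shControl replicate 1, 1 was lower (6.25%, beside 18.3%) and 3 higher (18.8%, beside 15.6%), and with GC content and length taken out 1 and 1 (6.25% each, beside 8.69% and 12.3%). LAMTOR5, a subunit of the Ragulator scaffold, had 1835, 1454 and 1440.0 normalised counts in shControl and 2066, 2332 and 1987 in shSQLE (0.43, edgeR adjusted p = 0.166, and 0.56 and 0.38 in those fits). RRAGD, a Rag GTPase, had 207, 241 and 277 against 180.2, 169.5 and 185 (-0.44, edgeR adjusted p = 0.216, and -0.54 and -0.34 in those fits). LAMP3, the inducible relative of LAMP1, was too rare to test, with 15 summed counts in shControl and 2 in shSQLE, a ratio of 7.78 with a counting interval from 1.81 to 70.1.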
